A study of Mus musculus with 8 samples.

Results

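The CXC chemokine genes Cxcl1, Cxcl2, Cxcl3, Cxcl5, Ppbp and Pf4 were examined in mouse cheek skin after an injection of brain natriuretic peptide (BNP), a peptide that makes mice scratch. They were chosen by gene symbol, with earlier results of these data known, as were the gene lists set beside them. All 6 were among the 18901 genes of the deposited table and among the 17124 genes with enough counts to be tested. The 8 mice, 4 of the genotype TBX20fl/fl;K14-Cre and 4 of the genotype TBX20fl/fl, were female and 7 weeks old. Each received 10 µg of BNP into the skin of the cheek, was filmed for 30 min and was euthanised 5 h later. Both groups carry loxP sites around exons 2 and 3 of Tbx20, a T-box transcription factor gene. The K14-Cre transgene removes these exons in cells with an active keratin 14 promoter, which are mainly basal keratinocytes, whereas the TBX20fl/fl littermates have no Cre. Both groups received BNP, and vehicle-injected skin was not analysed here, so the values compare genotypes after BNP and say nothing of the response to BNP itself. Each mouse gave 1 library of whole cheek tissue, and the mice are named below by genotype and by the number 1 to 4 of their labels.

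Chemokines are small secreted proteins that guide white blood cells. CXC chemokines with the residues glutamate, leucine and arginine (ELR) before the first cysteine pair bind CXCR2 on neutrophils, draw these cells from the blood into inflamed skin and are made by keratinocytes, fibroblasts, endothelial cells, macrophages and neutrophils themselves. IL-1, TNF and IL-17 are known to switch these genes on through NF-κB, and IL-17 also delays the decay of their mRNA, which is rich in AU repeats. Ppbp and Pf4 lie in the same gene cluster but are best known as cargo of platelet granules, and Pf4 is also expressed by some tissue macrophages.

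The ELR residues separate the genes of the set, so the coding stretch around them is shown for each gene. The stretches are from GENCODE M21 transcripts, 5′ to 3′, with the 3 codons before the first Cys-X-Cys in capitals.
Cxcl1: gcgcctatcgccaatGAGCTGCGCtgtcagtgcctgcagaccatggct
Cxcl2: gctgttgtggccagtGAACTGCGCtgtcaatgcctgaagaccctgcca
Cxcl3: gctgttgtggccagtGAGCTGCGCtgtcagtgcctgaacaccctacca
Cxcl5: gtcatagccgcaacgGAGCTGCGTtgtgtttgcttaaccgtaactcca
Ppbp: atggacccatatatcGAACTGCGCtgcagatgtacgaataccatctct
Pf4: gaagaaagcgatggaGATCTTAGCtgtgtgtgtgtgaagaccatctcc
The capitals encode Glu-Leu-Arg in Cxcl1, Cxcl2, Cxcl3, Cxcl5 and Ppbp and not in Pf4, so the name neutrophil-attracting fits 5 of the 6 genes by this feature. Over the whole coding sequence Cxcl2 and Cxcl3 were 89.8% identical, Cxcl1 was 75.6% identical to Cxcl2 and 72.6% to Cxcl3, and every pair with Cxcl5, Ppbp or Pf4 was between 45.5% and 56.2% identical. Of the stretches of 50 bases, the length of a read, in the annotated transcripts of Cxcl2, 126 of 2159 also occurred in Cxcl3, so part of the reads of either gene could not be assigned by sequence alone. No stretch of Cxcl1, Ppbp or Pf4 occurred in another annotated gene.

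The promoters are shown next because NF-κB acts there and because TBX20, the factor removed, also acts by binding DNA. Each is the 150 bases before the annotated start in RefSeq on GRCm38.p6, plus strand, 5′ to 3′, with matches to GGGNNTTTCC on either strand, a common form of the NF-κB site, in capitals. They lie at chr5:90891095-90891244 (Cxcl1), chr5:90903749-90903898 (Cxcl2), chr5:90785951-90786100 (Cxcl3), chr5:90768368-90768517 (Ppbp) and chr5:90772285-90772434 (Pf4). No promoter of Cxcl5 was in the sources used here, so it was not searched.
Cxcl1: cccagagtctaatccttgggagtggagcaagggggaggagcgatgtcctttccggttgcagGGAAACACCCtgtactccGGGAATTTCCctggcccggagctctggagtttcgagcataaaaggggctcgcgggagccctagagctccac
Cxcl2: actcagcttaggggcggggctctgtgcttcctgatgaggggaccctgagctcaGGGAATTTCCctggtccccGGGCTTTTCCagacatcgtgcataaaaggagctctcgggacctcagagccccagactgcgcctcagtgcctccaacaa
Cxcl3: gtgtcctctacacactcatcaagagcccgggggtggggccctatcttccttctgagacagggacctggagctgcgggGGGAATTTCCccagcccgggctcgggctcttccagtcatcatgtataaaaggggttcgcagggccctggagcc
Ppbp: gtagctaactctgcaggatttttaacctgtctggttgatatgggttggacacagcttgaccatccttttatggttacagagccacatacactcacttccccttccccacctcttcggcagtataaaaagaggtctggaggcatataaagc
Pf4: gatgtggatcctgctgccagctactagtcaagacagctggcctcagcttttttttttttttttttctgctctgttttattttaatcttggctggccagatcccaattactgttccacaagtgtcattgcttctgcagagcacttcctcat
The exact letters GGGAATTTCC began 71 bases before the start of Cxcl1, 97 before that of Cxcl2 and 73 before that of Cxcl3. These letters were read from the Cxcl1 promoter, so the match there was set in advance. In windows from 250 bases before to 50 after the start, searched on both strands, these letters occurred in 29 of 32851 promoters (0.0883%) and the looser GGGNNTTTCC, which includes them, in 1.63%. Cxcl1 and Cxcl2 each held 2 matches to the looser form, Cxcl3 held 1, and the windows of Ppbp and Pf4 held none. The letters AGGTGTG, the core that T-box factors bind, occurred in 5.84% of all promoters and in none of these 5. TATAAA, the TATA box, occurred in 13.6% of all promoters, 30 bases before the start in Cxcl3 and in Ppbp, and a further time 8 bases before the start in Ppbp. These are matches of letters only and do not show that a factor binds there. In the 3′ untranslated regions, the pentamer ATTTA of AU-rich elements occurred 7 times in 592 bases in Cxcl1, 11 times in 734 in Cxcl2, 5 times in 645 in Cxcl3 and 5 times in 1111 in Cxcl5. It occurred once in 656 bases in Ppbp and once in 123 in Pf4. Per 1000 bases this was 11.8 in Cxcl1, 15.0 in Cxcl2, 7.75 in Cxcl3, 4.50 in Cxcl5, 1.52 in Ppbp and 8.13 in Pf4, against a median of 1.40 over 15401 coding transcripts. The 15401 all had 3′ untranslated regions longer than that of Pf4, whose value rests on 1 match.

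The 6 genes lie within 146.6 kb of chromosome 5 on GRCm38, all on the plus strand and with no other gene of the deposited table between them. By RefSeq positions Cxcl5 (gene ID 20311) is first, at 90759298 to 90761625, followed by Ppbp (57349) at 90768518 to 90770063, Pf4 (56744) at 90772435 to 90773383 and Cxcl3 (330122) at 90786101 to 90788093. Cxcl1 (14825) at 90891245 to 90893121 and Cxcl2 (20310) at 90903899 to 90905938 follow after a gap. The deposited table gives the same positions for Cxcl1 and Cxcl2, but for the other 4 it joins a start on an alternate sequence to an end on the chromosome and lists each transcript a second time. How reads were divided between these copies is not given in the sources used here.

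The libraries held 16056282 to 19880654 counts, which makes 3 counts 0.151 to 0.187 CPM (counts scaled to the same library total). TBX20fl/fl mouse 2 stood apart from the rest. Its TMM scaling factor was 0.735, against 1.01 to 1.07 in the other 7 mice, and genes with short transcripts were high in its library. All 6 chemokine transcripts are short (539 to 1592 bases, as derived from the counts and FPKM), at or below the length that 20.1% of 13297 well-covered genes do not exceed. Results are therefore given with and without this mouse. Tbx20 itself was at 0 to 2 counts with K14-Cre and at 0 to 3 without, too few for the deletion to be seen in whole tissue at this depth. Replicates are different mice, so the spread between them includes differences between animals.

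Cxcl1, Cxcl2, Cxcl3 and Cxcl5 had lower mean levels in TBX20fl/fl;K14-Cre than in TBX20fl/fl skin, by 2.67 to 3.61 times in FPKM, a level scaled by transcript length and by sequencing depth. Without TBX20fl/fl mouse 2, the highest mouse for these 4 genes, the ratio of means was 1.67 for Cxcl1, 2.96 for Cxcl2, 2.52 for Cxcl3 and 2.26 for Cxcl5. TBX20fl/fl;K14-Cre mice 1 and 3 had levels below those of every TBX20fl/fl mouse, whereas mice 2 and 4 came close to the lowest TBX20fl/fl mice or reached into their range. For Ppbp and Pf4 the ratios were 1.98 and 1.40 with all mice, and their mice did not follow this order. Without TBX20fl/fl mouse 2 the log2 fold change of Ppbp (-1.03) was further from 0 than that of Cxcl1 (-0.79), so the order of the genes by size of difference depended on this mouse. No gene of the set passed an adjusted p of 0.05 in edgeR's quasi-likelihood test (p-values adjusted over all 17124 genes by the Benjamini-Hochberg method), and neither did any other gene (smallest adjusted p = 0.498). An unadjusted p under 0.05 was found for 1431 genes, and DESeq2's Wald test gave 10 genes past an adjusted p of 0.05, none of them of this set.

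Cxcl1 encodes the chemokine also called KC, which keratinocytes and stromal cells release early in inflammation. Its FPKM was 2.58, 12.7, 2.86 and 10.8 in TBX20fl/fl;K14-Cre mice 1 to 4 and 13.6, 41.0, 12.2 and 10.5 in TBX20fl/fl mice 1 to 4. TBX20fl/fl;K14-Cre mice 2 and 4 were above the lowest TBX20fl/fl mouse, so the groups overlapped, and TBX20fl/fl mouse 2 was about 3 times as high as any other mouse. The mean FPKM was 7.24 ± 5.28 (SD, n = 4) against 19.3 ± 14.5 (SD, n = 4), with p = 0.143 in a two-sided exact permutation test. Counts gave a log2 fold change of -1.73 (standard error 0.705, unadjusted p = 0.0355 in edgeR's test). Without TBX20fl/fl mouse 2 it was -0.79, and the mean FPKM of the remaining TBX20fl/fl mice was 12.1.

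Cxcl2, or MIP-2, is made mainly by macrophages, mast cells and neutrophils. Its FPKM was 1.65, 8.79, 3.92 and 13.6 in TBX20fl/fl;K14-Cre mice 1 to 4 and 21.6, 38.9, 11.5 and 28.8 in TBX20fl/fl mice 1 to 4. Only TBX20fl/fl;K14-Cre mouse 4 reached above a TBX20fl/fl mouse, number 3. The means were 6.99 ± 5.32 (SD, n = 4) and 25.2 ± 11.6 (SD, n = 4), with p = 0.0571 in the exact permutation test. Its log2 fold change of -2.10 (standard error 0.637, unadjusted p = 0.00886 in edgeR's test) was the largest of the set in the fit of all mice. Without TBX20fl/fl mouse 2 its log2 fold change was -1.61 (unadjusted p = 0.0233 in edgeR's test), and no other gene of the set then had an unadjusted p under 0.05.

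Cxcl3 is the closest relative of Cxcl2 and attracts neutrophils through the same receptor. Its FPKM was 0.17, 2.11, 0.33 and 1.42 in TBX20fl/fl;K14-Cre mice 1 to 4 and 2.72, 6.05, 1.70 and 3.20 in TBX20fl/fl mice 1 to 4. TBX20fl/fl;K14-Cre mouse 2 was the only one above the lowest TBX20fl/fl mouse, number 3. The lowest value rested on 3 counts (95% exact Poisson interval 0.619 to 8.77, counting error only), so the fold between the mice is imprecise for this gene. The means were 1.01 ± 0.921 (SD, n = 4) and 3.42 ± 1.86 (SD, n = 4), with p = 0.0571 in the exact permutation test, and counts gave a log2 fold change of -2.04 (standard error 0.747, unadjusted p = 0.0227 in edgeR's test).

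Cxcl5, or LIX, is known as a chemokine of epithelial and stromal cells. Its FPKM was 0.85, 5.89, 1.47 and 4.65 in TBX20fl/fl;K14-Cre mice 1 to 4 and 7.13, 19.3, 4.81 and 9.90 in TBX20fl/fl mice 1 to 4. The order of the mice was the same as for Cxcl3, with TBX20fl/fl;K14-Cre mouse 2 again above TBX20fl/fl mouse 3. The means were 3.21 ± 2.44 (SD, n = 4) and 10.3 ± 6.34 (SD, n = 4), with p = 0.0571 in the exact permutation test. Counts gave -1.97 on the log2 scale (standard error 0.692, unadjusted p = 0.0188 in edgeR's test), and -1.22 without TBX20fl/fl mouse 2.

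Ppbp encodes the precursor that platelets process into the neutrophil attractant NAP-2. It had the lowest mean of the set over all mice, though not the lowest level in each mouse. Its FPKM was 0.95, 0.64, 0.93 and 1.12 in TBX20fl/fl;K14-Cre mice 1 to 4 and 0.49, 1.75, 1.17 and 3.79 in TBX20fl/fl mice 1 to 4. The TBX20fl/fl;K14-Cre values lay close together and all within the TBX20fl/fl range, and TBX20fl/fl mouse 4 was the highest. The means were 0.910 ± 0.199 (SD, n = 4) and 1.80 ± 1.42 (SD, n = 4), with p = 0.257 in the exact permutation test. On the log2 scale the counts differed by -1.14 (standard error 0.544, unadjusted p = 0.0641 in edgeR's test), and -0.60 without TBX20fl/fl mouse 4.

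Pf4, platelet factor 4, was the highest of the set. Its FPKM was 88.8, 80.9, 108.6 and 87.6 in TBX20fl/fl;K14-Cre mice 1 to 4 and 73.9, 159.7, 121.2 and 158.9 in TBX20fl/fl mice 1 to 4. TBX20fl/fl mouse 1 was the lowest of all 8 mice and the other TBX20fl/fl mice were the highest. The means were 91.5 ± 11.9 (SD, n = 4) and 128.4 ± 40.6 (SD, n = 4), with p = 0.200 in the exact permutation test. For counts the log2 difference was -0.70 (standard error 0.296, unadjusted p = 0.0414 in edgeR's test), and it came to -0.06 when each library's trend with transcript length was taken out.

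**Figure D1:**
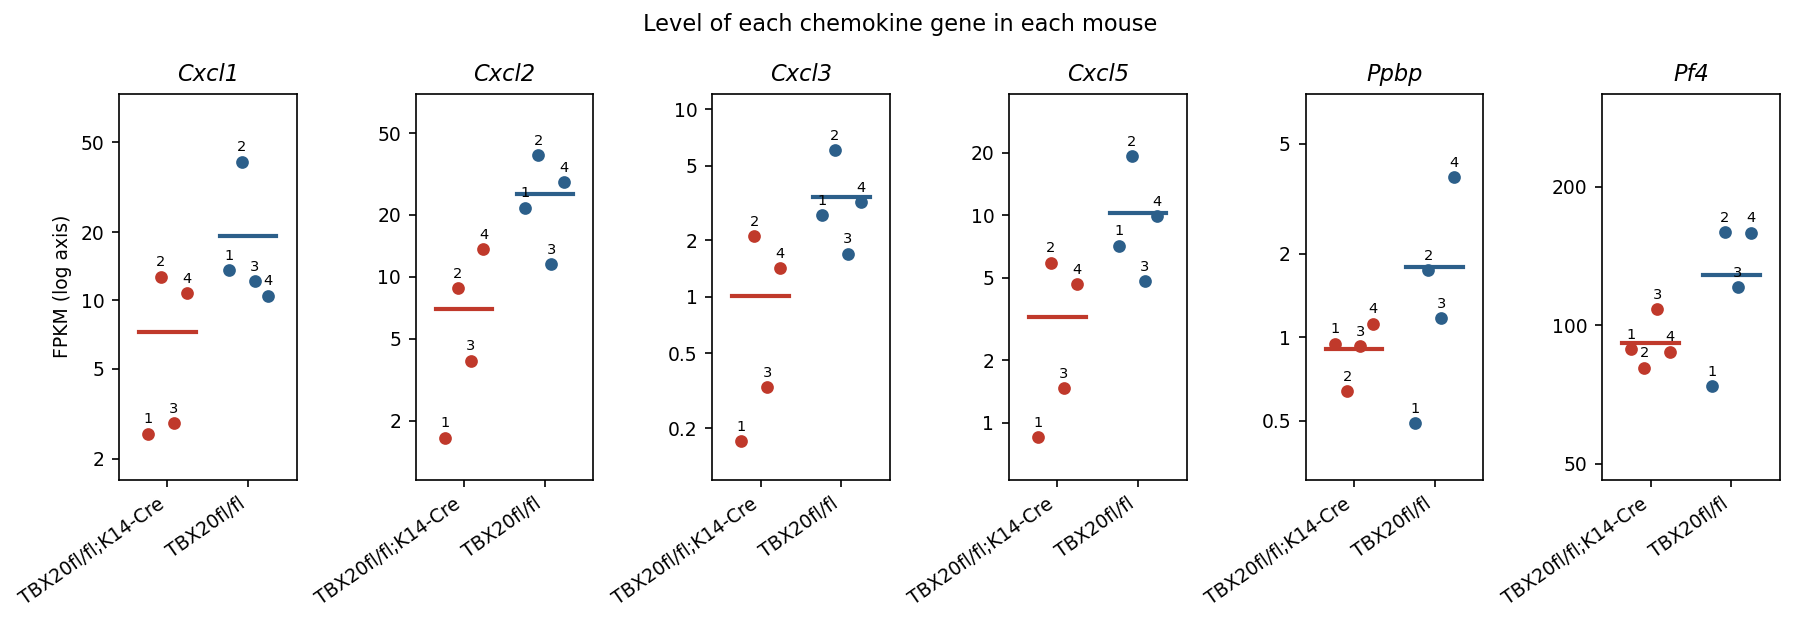
FPKM of each chemokine gene (log axes, a separate scale for each gene) in the 4 TBX20fl/fl;K14-Cre mice (red) and the 4 TBX20fl/fl mice (blue), with the mouse number above each point and a line at each group mean. In Cxcl1, Cxcl2, Cxcl3 and Cxcl5 the TBX20fl/fl;K14-Cre mice 1 and 3 lie below all others, and in every gene the groups overlap.

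The exact test of 4 mice against 4 cannot give a p below 0.0286, which needs groups that do not overlap. None of the 6 genes reached this, while 1.87% of all genes tested had FPKM groups that did not overlap and were lower in TBX20fl/fl;K14-Cre mice. In edgeR's fit all 6 log2 fold changes were below 0, as were those of 47.5% of all genes tested, and 5 of the 6 were at -1 or lower, against 2.8% of all genes. The median log2 fold change of the set was -1.85, against 0.03 over all genes tested. An unadjusted p under 0.05 with a lower level in TBX20fl/fl;K14-Cre skin was found for 5 of the 6 genes (all but Ppbp) and for 5.91% of all genes tested. These unadjusted values describe where the genes stand among all genes and do not replace the adjusted p, which was 0.498 for each of the 6 in edgeR's test. In whole skin, fewer cells that make a chemokine and less of its RNA per cell cannot be told apart.

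The 4 genes Cxcl1, Cxcl2, Cxcl3 and Cxcl5 had TBX20fl/fl mouse 2 as their highest mouse. On the log2 CPM scale this mouse lay 2.20 to 2.46 above the median of the other 7 in these genes, while genes whose derived transcript length was within 10% of theirs had medians of 0.60 to 1.27. For Ppbp the value was 1.27, against 1.15 for genes of like length, and for Pf4 it was 1.33, against 1.53. The other 7 include the 4 TBX20fl/fl;K14-Cre mice, so the excess of this mouse in the 6 genes also holds their genotype difference. Without this mouse the log2 fold changes of Cxcl1, Cxcl2, Cxcl3 and Cxcl5 were -0.79, -1.61, -1.40 and -1.22, those of Ppbp and Pf4 were -1.03 and -0.41, and 1 of the 6 genes (Cxcl2) had an unadjusted p under 0.05 with a lower level in TBX20fl/fl;K14-Cre skin, against 4.5% of all genes. With the length trend removed and all mice kept, the log2 fold changes in the order Cxcl1, Cxcl2, Cxcl3, Cxcl5, Ppbp and Pf4 were -1.03, -1.59, -1.49, -1.61, -0.76 and -0.06, and 3 of the 6 genes (Cxcl2, Cxcl3 and Cxcl5) had such a p, against 5.18% of all genes. Every one of these values remained below 0, and none passed after adjustment.

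Mice with the same number in the labels deviated from their group means together across genes on average, but some mice with different numbers did so as much. By pairs of the same number, Cxcl2, Cxcl3 and Cxcl5 were lower with K14-Cre in 4 of 4. This was so for 9.73% of all genes tested, and Cxcl1, Ppbp and Pf4 were lower in 3 of 4. The ratio of the TBX20fl/fl to the TBX20fl/fl;K14-Cre mouse for Cxcl2 was 13.1 in pair 1, 4.43 in pair 2, 2.94 in pair 3 and 2.12 in pair 4. For Cxcl5 it was 8.39, 3.27, 3.27 and 2.13 in the same order. With the number as a block in edgeR's fit, the standard error of Cxcl5 was 0.318 in place of 0.692 and its log2 fold change -2.02 (adjusted p = 0.405), so the call did not change. In that fit 4 of the 6 genes (Cxcl1, Cxcl2, Cxcl3 and Cxcl5) had an unadjusted p under 0.05, against 6.54% of all genes that had one with a lower level.

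**Figure D2:**
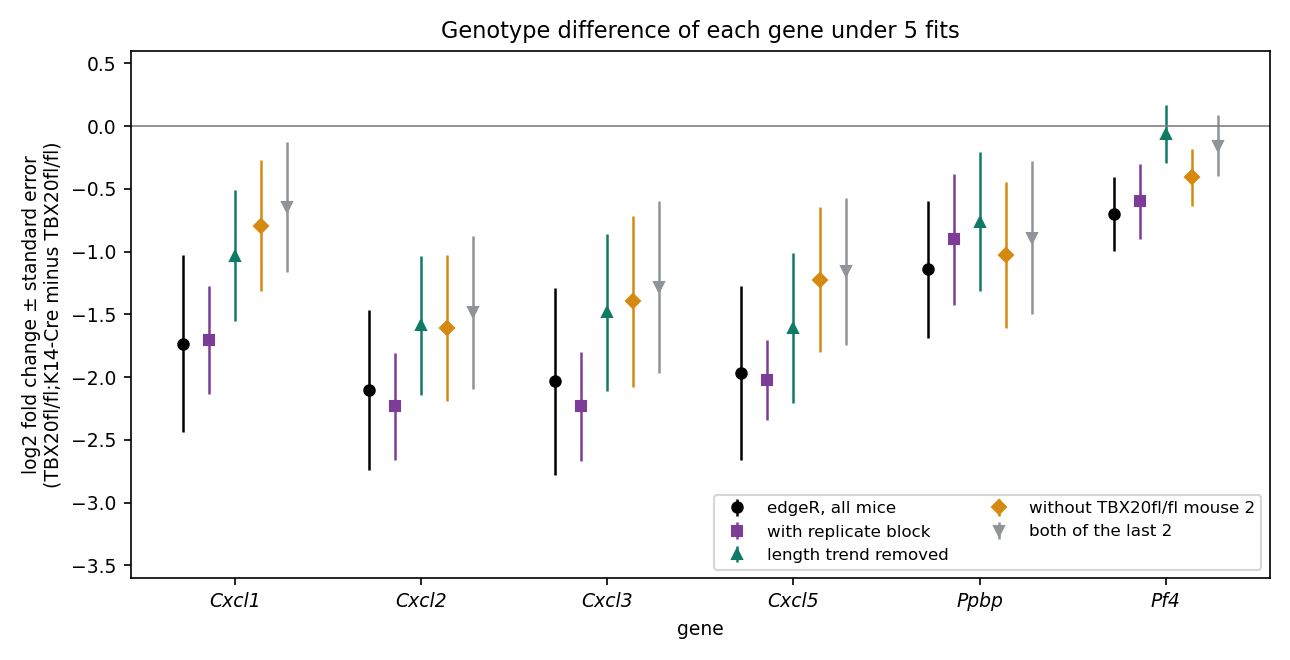
Log2 fold change with its standard error for each gene under 5 edgeR fits, with values below 0 lower in TBX20fl/fl;K14-Cre skin. Cxcl1, for example, moved from -1.73 in the fit of all mice to -0.79 without TBX20fl/fl mouse 2, and Pf4 from -0.70 to -0.06 with the length trend removed.

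In level per length, averaged over the 8 mice, Pf4 was first at an FPKM of 109.9, followed by Cxcl2 at 16.1, Cxcl1 at 13.3, Cxcl5 at 6.75, Cxcl3 at 2.21 and Ppbp at 1.36. Pf4 exceeded Cxcl2, Cxcl1 exceeded Cxcl5 and Cxcl5 exceeded Cxcl3 in 8 of 8 mice. Cxcl2 exceeded Cxcl1 in 4 of 8 mice and Cxcl3 exceeded Ppbp in 5 of 8, so these neighbours were not ordered beyond the spread between mice. The summed FPKM of Cxcl1, Cxcl2, Cxcl3 and Cxcl5 was 5.25, 29.5, 8.58 and 30.4 in TBX20fl/fl;K14-Cre mice 1 to 4 and 45.1, 105.2, 30.2 and 52.4 in TBX20fl/fl mice 1 to 4. The make-up of this sum varied less than its size. Cxcl5 was 15.3% to 19.9% of it in every mouse, whereas the share of Cxcl1 ranged from 20.0% in TBX20fl/fl mouse 4 to 49.1% in TBX20fl/fl;K14-Cre mouse 1.

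The 4 genes varied together between mice, also after the genotype means were subtracted. Pearson's correlations of log2 CPM over the 8 mice were 0.91 to 1.00 among Cxcl1, Cxcl2, Cxcl3 and Cxcl5 and 0.87 between Ppbp and Pf4, but 0.34 to 0.59 between a gene of the former group and one of the latter. After each genotype's mean was subtracted, these were 0.84 to 0.99, 0.83 and 0.07 to 0.32. Among the 4 TBX20fl/fl;K14-Cre mice alone, Pf4 had correlations of -0.80 to -0.48 with the 4 genes and of 0.42 with Ppbp, with only 4 points. Without TBX20fl/fl mouse 2 the correlations among the 4 genes ran from 0.87 for Cxcl1 with Cxcl2 to 1.00 for Cxcl3 with Cxcl5. That of Ppbp with Pf4 was then 0.90, and those of a gene of the 4 with Ppbp or Pf4 were -0.02 to 0.32. The genes of a mouse share its library and its scaling, so these values are descriptions.

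**Figure D3:**
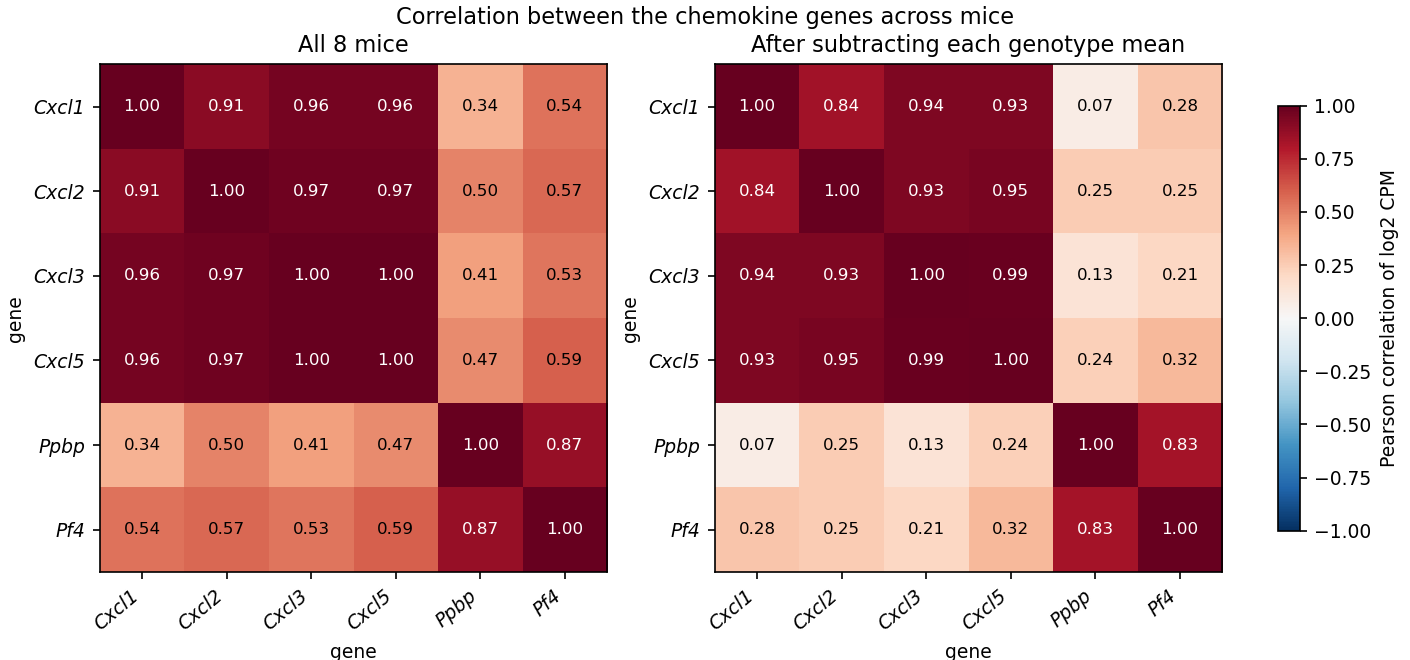
Pearson's correlation of log2 CPM between each pair of genes (rows and columns) over the 8 mice (left) and after the mean of each genotype was subtracted (right), with colour and printed value giving the correlation. Cxcl1, Cxcl2, Cxcl3 and Cxcl5 form a block with values from 0.84 on the right, and Ppbp with Pf4 a second one at 0.83.

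Of 14408 other genes with a mean of at least 1 CPM, those most like each chemokine over the 8 mice were named by Pearson's correlation of log2 CPM. Cxcl3 and Cxcl5 were each other's nearest gene (0.995), and this was also so without TBX20fl/fl mouse 2. The splicing factor gene Usp39 (0.991 with Cxcl3 and 0.979 with Cxcl5), Tsc22d3, a glucocorticoid-induced gene (0.983 with Cxcl3), and Cxcl2 (0.974 with Cxcl5) came next. The genes nearest to Cxcl2 were Il1b, the cytokine IL-1β (0.988), Trem1, a receptor of neutrophils and monocytes (0.984), and Nek6 (0.979). Il1b remained the nearest to Cxcl2 without TBX20fl/fl mouse 2 (0.995). Cxcl1 was nearest to Cebpd, a transcription factor gene of the acute-phase response (0.987), Gadd45g (0.982) and Mtch1 (0.980). Pf4 was nearest to Ltc4s, which encodes leukotriene C4 synthase (0.985), Mup3 (0.982) and Gm13212 (0.972), and Ppbp to Btnl2 (0.955), Tsga10 (0.948) and Sirpb1c (0.943). Without TBX20fl/fl mouse 2 Cebpd came at rank 3 for Cxcl1, Ltc4s at rank 2 for Pf4 and Btnl2 at rank 2 for Ppbp. With 8 points and 14408 genes, high values arise among genes with no relation, and the genotype difference is part of each value.

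The receptors of these chemokines had levels of their own. Cxcr2, through which the ELR chemokines act on neutrophils, had an FPKM of 4.63, 6.06, 5.42 and 9.29 in TBX20fl/fl;K14-Cre mice 1 to 4 and 8.77, 8.78, 9.53 and 17.2 in TBX20fl/fl mice 1 to 4. One TBX20fl/fl;K14-Cre mouse, number 4, reached into the TBX20fl/fl range. The receptor gene was at a log2 fold change of -0.96 (standard error 0.269, unadjusted p = 0.00581 and adjusted p = 0.498 in edgeR's test), and at -0.94 without TBX20fl/fl mouse 2. Cxcr1, the other ELR receptor, had 0 to 8 counts per mouse and a fitted log2 fold change of -1.62 (standard error 0.752, unadjusted p = 0.0589 in edgeR's test), imprecise at such counts. Ackr1, a receptor on venules and red cells that binds chemokines without signalling, had an FPKM of 5.48 to 10.0 and 7.70 to 9.77, with a log2 fold change of -0.50 (standard error 0.257).

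Of the other CXC chemokine genes, 7 were tested. They share the family with the 6 genes but mostly attract lymphocytes and monocytes. None passed after adjustment, 4 had an unadjusted p under 0.05 with a lower level in TBX20fl/fl;K14-Cre skin (5.91% of all genes) and none with a higher one (2.45%), and their median log2 fold change was -0.66. The 4 became 2 without TBX20fl/fl mouse 2, against 4.5% of all genes, and the median was then -0.38. With all mice the 4 were Cxcl9 (-1.45) and Cxcl10 (-1.11), which bind CXCR3, Cxcl13 (-0.70), which attracts B cells, and Cxcl16 (-0.55). They were at -1.17, -0.72, -0.40 and -0.38 when that mouse was left out. Cxcl12 and Cxcl14 had log2 fold changes of 0.13 and 0.45, with unadjusted p-values of 0.561 and 0.217 in edgeR's test. Without TBX20fl/fl;K14-Cre mouse 2 Cxcl14 was at -0.02. Cxcl11 and Cxcl15 were not analysed here.

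Of the cytokines and adaptors known to switch the ELR chemokines on, 14 were tested, and 5 had an unadjusted p under 0.05 with a lower level in TBX20fl/fl;K14-Cre skin, against 5.91% of all genes, and none with a higher one (median log2 fold change -0.31, and -0.11 without TBX20fl/fl mouse 4). The count was also 5 without TBX20fl/fl mouse 2. None passed after adjustment. The cytokine genes Il1b (log2 fold change -2.06, standard error 0.563), Tnf (-1.29, standard error 0.394) and Il1a (-0.81, standard error 0.219) were among the 5, with Myd88 (-0.65), the adaptor of IL-1 and Toll-like receptors, and Nfkbiz (-0.50), a nuclear IκB protein of this response. Il1b had an FPKM of 12.95, 38.0, 22.4 and 58.6 in TBX20fl/fl;K14-Cre mice 1 to 4 and 89.9, 197.6, 57.1 and 110.5 in TBX20fl/fl mice 1 to 4, so that mice 1 and 3 were the lowest here too. Il17a and Il17f, at 0 to 6 and 0 to 4 counts per mouse, had fitted log2 fold changes of -2.26 (standard error 1.05, unadjusted p = 0.0583 in edgeR's test) and -1.73 (standard error 0.787, unadjusted p = 0.0541 in edgeR's test), which so few counts leave imprecise. The receptor genes Il1r1, Il17ra and Tnfrsf1a had log2 fold changes of 0.02, -0.01 and -0.12.

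Of 5 genes that control the decay of chemokine mRNA, Zc3h12a, which encodes the endonuclease Regnase-1, had an unadjusted p under 0.05, at a log2 fold change of -0.45 (standard error 0.192), and it had no such p when any mouse but TBX20fl/fl mouse 2 was left out. Zfp36, which encodes the AU-rich element binding protein tristetraprolin, had a log2 fold change of -0.27 (-0.48, with an unadjusted p under 0.05, without TBX20fl/fl;K14-Cre mouse 4) and Elavl1, whose product protects such mRNA, 0.10. Of 4 genes for colony-stimulating factors and IL-6, Csf3, the growth factor of neutrophils, was at -1.42 (standard error 0.428) and Il6 at -2.01 (standard error 0.642), both with an unadjusted p under 0.05. A lower level with such a p was found for 5.91% of all genes, and no gene of these 2 lists passed after adjustment (adjusted p = 0.498 for Zc3h12a, Csf3 and Il6 in edgeR's test). Without TBX20fl/fl mouse 2 Csf3 and Il6 were at -1.38 and -1.05.

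No marker of a cell type passed after adjustment, and the lists are described by their counts and sums. Of 16 neutrophil markers 11 had an unadjusted p under 0.05 with a lower level in TBX20fl/fl;K14-Cre skin (5.91% of all genes), the median log2 fold change was -1.30, and their summed CPM was 246.9 to 401.6 in TBX20fl/fl;K14-Cre and 456.9 to 1149 in TBX20fl/fl mice, without overlap. The count was 10 (4.5% of all genes) and the median -0.99 without TBX20fl/fl mouse 2. None of the 4 defining neutrophil markers was at 0 in any mouse, but Ly6g had an FPKM of only 0.12 to 0.56. Ly6g and Ngp, both among the 11, had at most 8.75 and 8 counts in any mouse, so their values are imprecise too. Of the markers without such a p, Camp, Ltf and Mmp9 were at 0.57, -0.13 and -0.002. Camp and Ltf had at most 16 and 11 counts. By mean FPKM Il1r2, S100a8 and S100a9 were the highest of the 16, and such genes weigh most in the sum. Of 5 monocyte markers 4 had such a p (median -1.03, summed CPM 242.7 to 370.3 and 283.5 to 784.0). Leaving out TBX20fl/fl mouse 2 gave a count of 2 and a median of -0.56, and without TBX20fl/fl;K14-Cre mouse 1 or 2 the count was also 2. The summed CPM of 5 mast cell markers did not overlap either, at 521.3 to 559.6 in TBX20fl/fl;K14-Cre and 638.1 to 1352 in TBX20fl/fl mice. Cpa3 and Cma1, proteases of mast cells, were the 2 of them with such a p, at -0.92 and -0.75 with all mice and at -0.47 and -0.37 without TBX20fl/fl mouse 2, and the count was 1 without TBX20fl/fl;K14-Cre mouse 3. The median of the 5 was -0.38 and turned to 0.06 with the length trend removed. For 11 dermal macrophage markers the count was 1, C1qb, with a median of -0.13 and sums of 1345 to 2003 and 1323 to 1984. The count was 5 without TBX20fl/fl mouse 1, where 10.9% of all genes had such a p with a lower level. It was 0 without TBX20fl/fl mouse 2, 3 or 4 and without TBX20fl/fl;K14-Cre mouse 1, 2 or 4. Keratinocyte genes Krt14 and Krt5 had log2 fold changes of -0.30 and 0.12. Krt6a and Krt16, keratins of wounded and inflamed epidermis, were at -1.27 and -1.95, but 1 mouse set these values. Krt6a had an FPKM of 327.3 in TBX20fl/fl mouse 4, 52.7 to 63.9 in the other TBX20fl/fl mice and 36.7 to 70.6 with K14-Cre, and without mouse 4 the log2 fold changes of Krt6a and Krt16 were -0.26 and -0.50. Of 6 fibroblast markers Col1a1 and Col1a2, the chains of type I collagen, had an unadjusted p under 0.05 with a higher level in TBX20fl/fl;K14-Cre skin, against 2.45% of all genes, while Dcn and Lum, proteoglycans of the dermis, were at -0.64 and -0.52 with no such p. The mean FPKM of Col1a1 and Col1a2 was 398.3 and 556.8 with K14-Cre and 173.3 and 299.0 without, and neither had such a p when TBX20fl/fl;K14-Cre mouse 3 was left out. In the fit without TBX20fl/fl mouse 1, Dcn and Lum had such a p with a lower level, as had 10.9% of all genes. Without TBX20fl/fl mouse 2 they were at -0.24 and -0.09. With all mice, none of the 5 endothelial, 5 muscle and 5 erythroid markers had such a p in either direction. All of these had adjusted p-values of 0.498 or more in edgeR's test, and the part of these cells in the chemokine values was not tested.

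**Figure D4:**
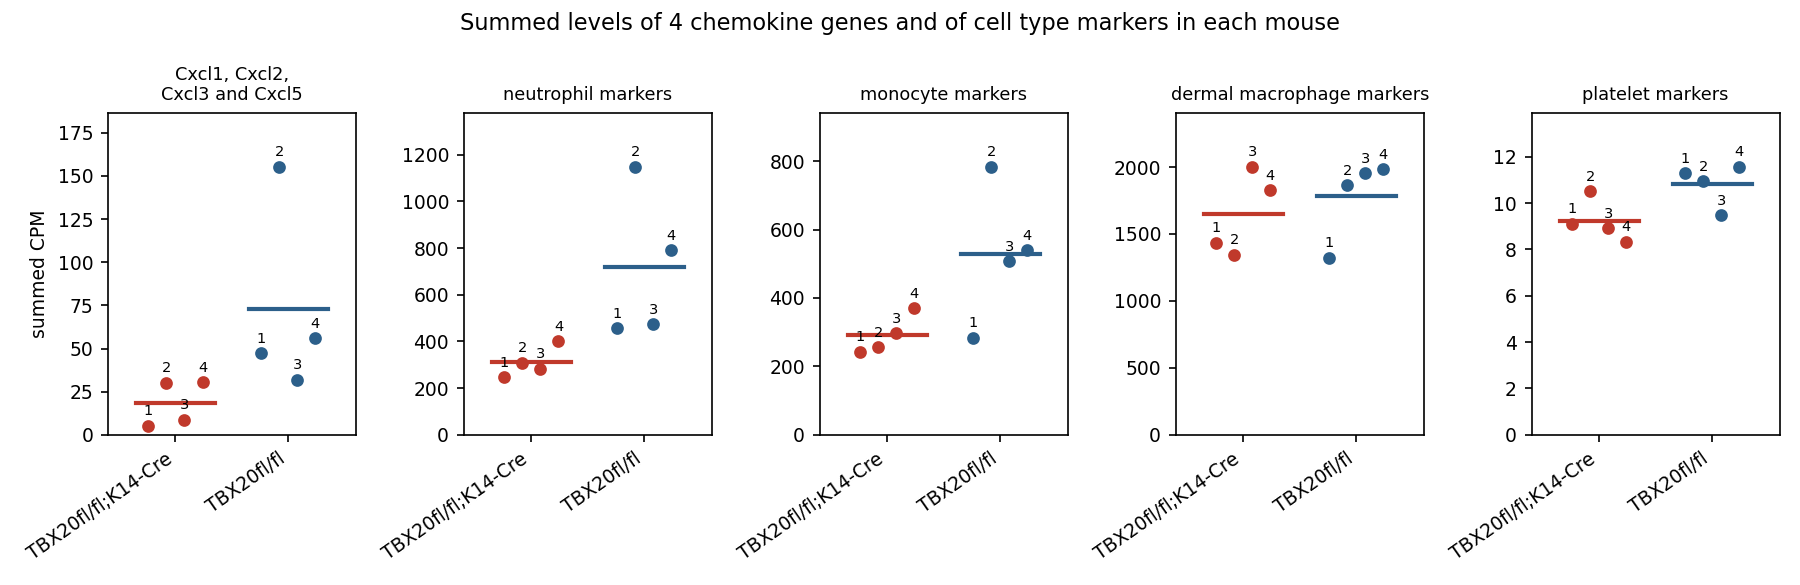
Summed CPM of Cxcl1, Cxcl2, Cxcl3 and Cxcl5 and of 4 lists of cell type markers in each mouse (red, TBX20fl/fl;K14-Cre; blue, TBX20fl/fl), with mouse numbers above the points and lines at the group means. Of the marker lists plotted, the sums of the neutrophil markers do not overlap between the groups, and those of the monocyte, macrophage and platelet markers do. The summed CPM of the 4 chemokine genes was at most 30.3 with K14-Cre and at least 32.0 without, whereas their summed FPKM overlapped.

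Platelet genes were scarce in these libraries although Pf4 was abundant. Of the 3 defining platelet markers, Gp9 was at 0 in 3 mice and at most 0.13 FPKM in the others, Gp1bb ranged from 0.68 to 1.38 and Itga2b from 1.22 to 1.93, against 73.9 to 159.7 for Pf4. The summed CPM of the 6 tested platelet markers was 8.33 to 10.5 in TBX20fl/fl;K14-Cre and 9.48 to 11.6 in TBX20fl/fl mice. Clec1b (log2 fold change -1.42) and Itga2b (-0.44) were the 2 of the 6 with an unadjusted p under 0.05 and a lower level with K14-Cre, against 5.91% of all genes, and none had one without TBX20fl/fl mouse 2. The dermal macrophage markers Cd163 (16.2 to 57.3 FPKM), F13a1 (62.9 to 112.3) and Folr2 (39.0 to 85.1) were at levels nearer to that of Pf4. Which cells held the Pf4 RNA was not tested.

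In the fit of all mice, genes next to the cluster gave log2 fold changes nearer to 0 with 1 exception. Rassf6, the nearest tested gene before the cluster, was at 0.01 (standard error 0.345) and Mthfd2l, the nearest after it, at -0.35 (standard error 0.241). Further on, Epgn, which encodes the EGF receptor ligand epigen, was at -1.09 (standard error 0.590, adjusted p = 0.498 in edgeR's test), and the other EGF receptor ligand genes Ereg, Areg and Btc were at -0.34, -0.06 and -0.16. Without TBX20fl/fl mouse 2 Epgn (-1.05) was further from 0 than Cxcl1, Ppbp and Pf4, and Ereg (-0.46) was further than Pf4 (-0.41). No other gene of the table lies between Cxcl5 and Cxcl2, where the log2 fold changes were -1.97, -1.14, -0.70, -2.04, -1.73 and -2.10 in the order of the genes along the chromosome. Ppbp and Pf4, with the smaller differences in the fit of all mice, lie between Cxcl5 and Cxcl3, but without TBX20fl/fl mouse 2 Ppbp (-1.03) was further from 0 than Cxcl1 (-0.79).

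**Figure D5:**
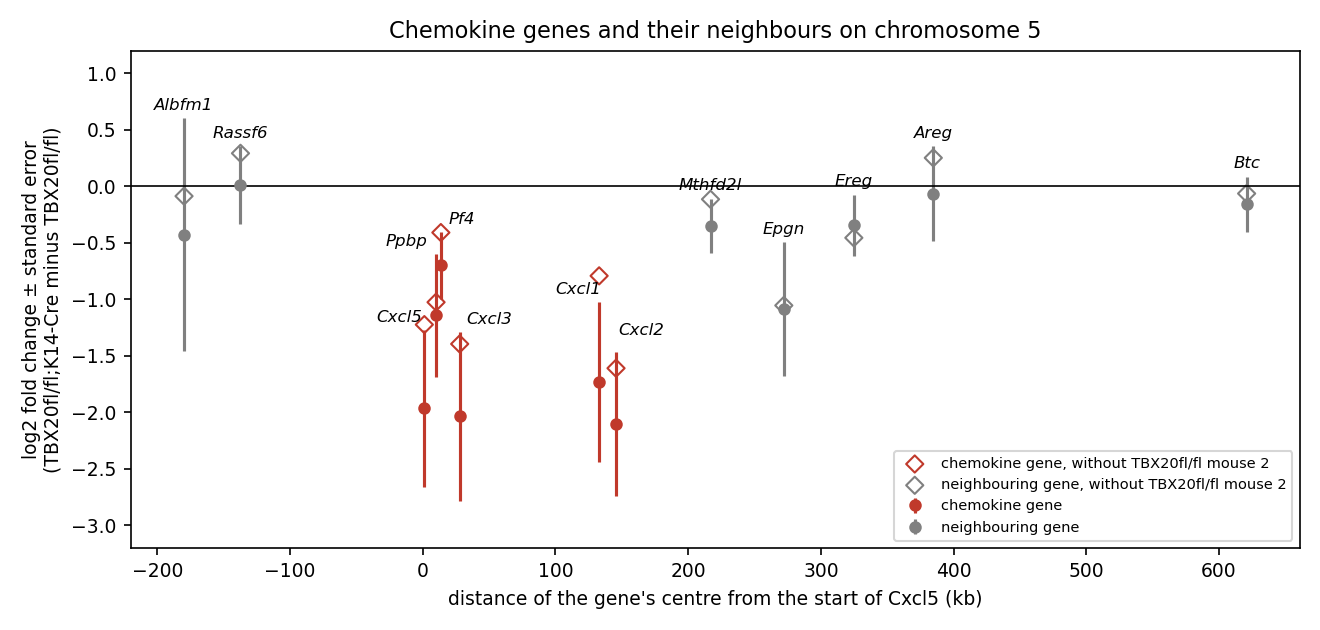
Log2 fold change with its standard error (filled circles) of the chemokine genes (red) and of their tested neighbours (grey) against the distance of each gene's centre from the start of Cxcl5 in kb, with open diamonds for the fit without TBX20fl/fl mouse 2. Rassf6 at 0.01 and Mthfd2l at -0.35 lie on either side of the cluster, and 5 of the 6 chemokine genes are at -1 or lower in the fit of all mice.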

How the data were processed

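Cheek skin RNA of 8 mice was sequenced with single-end 50-base reads. Filtering (SOAPnuke) and alignment (HISAT) were done by the authors, who deposited estimated counts (expected counts, not normalized, 69.0% of those above 0 not whole) and FPKM values. The authors also deposited TPM values, counts divided by size factors (a normalized signal), 40 columns of group means, and 17 comparisons (p-values, q-values and log2 fold changes), none of them used. The counting program is not given in the sources used here.

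Counts were rounded, and genes whose counts summed to 10 or more were fitted in edgeR 4.0.16, with its quasi-likelihood test (R 4.3.3, TMM normalization, Benjamini-Hochberg adjustment over 17124 genes). For FPKM, a two-sided exact permutation test enumerated the 70 assignments of each gene's values. Alternatives were other normalizations and filters, DESeq2 1.42.0, limma 3.58.1 on log2(FPKM + 1) and log2(FPKM + 0.1), the replicate block, a length trend as an offset, and leaving out each mouse. Leaving out TBX20fl/fl mouse 2 together with the length trend was added after seeing the data. Deviations from the group means correlated at 0.150 to 0.407 between mice of the same label number (mean 0.287), over 14409 genes. In the 12 other pairings they correlated at -0.492 to 0.390 (mean -0.085). These ranges overlap, and because deviations cancel out within each group, the means are not independent. The numbers were taken as pairs with this limit. The labels do not say what a number stands for. The tests were tested on simulated counts.

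The depth of 16056282 to 19880654 counts per mouse puts 3 counts at 0.151 to 0.187 CPM, and floors and intervals cover counting error only. The 6 genes and the gene lists were chosen with earlier results of these data known. Named genes are the 6, the receptors, list genes other than cell type markers with an unadjusted p under 0.05, some of the defining markers, neighbours on the chromosome, and the 3 genes most correlated with each of the 6. Other genes named, such as Il1r1 and Zfp36, were chosen after their values were seen. Promoters and positions are from RefSeq on GRCm38.p6, coding sequences from GENCODE M21.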

Additional observations from a re-analysis of the deposited data

Results flagged for a closer look

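The FPKM of Cxcl1 in TBX20fl/fl mouse 2 was 41.0, while the other 3 TBX20fl/fl mice had 10.5 to 13.6. The gap to the next mouse was 0.899 of the range of the group, above the critical value of Dixon's test for 4 samples. This was 1 of 12 groups of 4 mice examined, where 0.6 would be flagged by chance at 1 in 20. The same mouse had the low scaling factor and the raised short transcripts described above, and their part in the Cxcl1 value was not tested. Without it the log2 fold change of Cxcl1 was -0.79 with an unadjusted p of 0.166 in edgeR's test.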

How the results depend on the processing

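No alternative reversed a direction or gave one of the 6 genes an adjusted p under 0.05, in 20 alternatives for each gene. DESeq2's Wald test gave 10 genes past an adjusted p of 0.05 in place of 0, none of them of this set, whose smallest adjusted p there was 0.108 (Cxcl2). Leaving out each mouse in turn gave 0 to 0 genes past the threshold and log2 fold changes of -2.15 to -0.79 for Cxcl1, -2.64 to -1.61 for Cxcl2, -2.69 to -1.40 for Cxcl3, -2.44 to -1.22 for Cxcl5, -1.47 to -0.60 for Ppbp and -0.92 to -0.41 for Pf4. The value nearest 0 came without TBX20fl/fl mouse 2, for Ppbp without TBX20fl/fl mouse 4. With the replicate block the log2 fold changes were -1.71, -2.23, -2.23, -2.02, -0.90 and -0.60 in the order Cxcl1, Cxcl2, Cxcl3, Cxcl5, Ppbp and Pf4, and 0 genes passed, so that pairing changed no call. With the length trend removed and TBX20fl/fl mouse 2 left out they were -0.65, -1.49, -1.28, -1.16, -0.89 and -0.16. limma on log2(FPKM + 1), which moved the median of all genes to 0.12, gave -1.34, -1.87, -1.17, -1.47, -0.43 and -0.43. Counts as low as 3 for Cxcl3 (3 to 94 over the mice) and 10 for Ppbp (10 to 75) limit their precision.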
